A study of Mus musculus with 14 samples.

Results

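Scavenger receptors and receptors for dying cells are the surface proteins through which a macrophage takes up modified lipoproteins, haemoglobin, sugar-coated proteins and apoptotic cells. Here 10 such genes, chosen by name, were followed among 55487 genes counted in cells sorted from mouse colon: Mertk, Axl, Gas6, Timd4, Stab1, Cd36, Msr1, Marco, Cd163 and Mrc1. All of them were found in the deposited counts. They were described over 4 groups. Lamina propria macrophages came from Tsc2fl/fl Lyz2cre/+ mice (cre; 3 libraries, all male) and from Tsc2fl/fl Lyz2+/+ mice (wt; 1 male and 2 females). CD44-high epithelial cells came from the same genotypes, with 3 males and 1 female for cre and 2 males and 2 females for wt. All mice carried floxed Tsc2, which encodes tuberin, a brake on the kinase complex mTORC1. In cre mice the recombinase was driven by Lyz2, a gene of myeloid cells, and 1 Lyz2 allele carried it. No mice had the Lyz2cre allele with intact Tsc2, so the effects of that allele and of the deletion cannot be told apart. Ages are not given in the labels. Libraries are named by genotype, cell type and the mouse number in the labels (cre macrophage 8, for example).

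Mertk and Axl, with Tyro3, form the TAM family of receptor tyrosine kinases. They do not touch a dying cell directly. The ligands Gas6 and protein S bind the phosphatidylserine that apoptotic cells expose and bridge it to receptors of this family, though not each ligand to each receptor. Timd4 and stabilin 1 (Stab1) bind phosphatidylserine themselves. Cd36, Msr1 and Marco take up modified lipoproteins and other cargo such as bacteria. Cd163 takes up haemoglobin bound to haptoglobin, and Mrc1, the mannose receptor, takes up glycoproteins. In the gut wall, resident macrophages clear epithelial and other cells that die beside them.

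The targeted gene was checked first. Tsc2 stood at 29.0, 31.9 and 24.1 CPM (counts scaled to a common library size) in cre macrophages 8, 9 and 10 and at 37.0, 34.1 and 22.9 CPM in wt macrophages 2, 4 and 6, with a log2 change of -0.14 ± 0.23 (SE; adjusted p = 0.860, edgeR), which turned to 0.32 among males only. In epithelial cells Tsc2 averaged 57.5 ± 3.66 CPM in cre and 52.0 ± 2.72 CPM in wt libraries (SD, n = 4 each). The counts cover the whole gene and not the deleted exons alone, so they do not show how far the deletion went. Tsc2 also overlaps Pkd1 on the opposite strand, which reached at most 239 counts in any library, and the protocol keeps no strand. Libraries held 7269103 to 9364551 counts. Lyz2 itself averaged 6278 ± 164 CPM in cre and 7302 ± 876 CPM in wt macrophages (SD, n = 3 each).

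The promoters of the 4 genes whose libraries separated by genotype with the smallest p-values in macrophages are shown so that their composition can be read beside the counts. Mertk and Stab1 stood higher in every cre than in every wt macrophage library, and Axl and Timd4 stood lower. Each line gives the 250 bases before the RefSeq start of the gene on GRCm38.p6, read 5′ to 3′ on the gene's strand, with the searched motifs that it holds in capitals.
Mertk, chr2:128698665-128698914, plus strand: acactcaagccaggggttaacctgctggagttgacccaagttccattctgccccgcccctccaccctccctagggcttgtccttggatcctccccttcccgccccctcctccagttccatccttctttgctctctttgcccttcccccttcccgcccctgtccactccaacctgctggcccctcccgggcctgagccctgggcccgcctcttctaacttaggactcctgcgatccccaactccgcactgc
Stab1, chr14:31168642-31168891, minus strand: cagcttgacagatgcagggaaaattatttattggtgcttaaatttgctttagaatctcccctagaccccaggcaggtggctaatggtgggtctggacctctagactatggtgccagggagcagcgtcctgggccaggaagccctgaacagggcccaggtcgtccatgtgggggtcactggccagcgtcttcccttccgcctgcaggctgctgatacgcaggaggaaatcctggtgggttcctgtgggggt
Axl, chr7:25788734-25788983, minus strand: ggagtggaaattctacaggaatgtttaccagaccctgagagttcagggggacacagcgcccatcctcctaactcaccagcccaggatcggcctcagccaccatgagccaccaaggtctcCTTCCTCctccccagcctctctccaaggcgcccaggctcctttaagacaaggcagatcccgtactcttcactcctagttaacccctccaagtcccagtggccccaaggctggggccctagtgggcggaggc
Timd4, chr11:46810549-46810798, plus strand: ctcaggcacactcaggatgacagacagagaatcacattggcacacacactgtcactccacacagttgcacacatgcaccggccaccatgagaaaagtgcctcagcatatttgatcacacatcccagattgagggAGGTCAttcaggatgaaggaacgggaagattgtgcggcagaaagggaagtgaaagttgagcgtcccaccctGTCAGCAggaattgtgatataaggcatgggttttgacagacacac

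In these windows 6 short motifs were searched on both strands: CACGTG, the E-box of MiT/TFE and other basic helix-loop-helix factors; TCATGTG, the M-box core; GAGGAAG, the core bound by the macrophage factor PU.1; TGANTCA, the AP-1 site; TGCTGAC, part of the site of large Maf factors; and AGGTCA, the core bound by nuclear receptors. RefSeq promoters matched 9 of the 10 genes, all but Msr1. CACGTG occurred in 0 of the 9 promoters, against 6.02% of 32851 promoters of the same length. TCATGTG was held by 0 of 9, against 3.25% of all promoters, and TGANTCA by 0 of 9, against 6.75%. GAGGAAG was held by 3 of 9, against 10.6% of all promoters. These were Axl, where it lies 131 to 125 bases before the start on the opposite strand, Marco, and Mrc1, which holds it at 2 positions. Timd4 held both AGGTCA, 116 to 111 bases before the start, and TGCTGAC, 45 to 39 bases before the start on the opposite strand. AGGTCA occurred in 2 of 9 promoters, Cd36 being the other, against 14% of all promoters, and TGCTGAC in 1 of 9, against 3.81%. Neither Mertk nor Stab1 held any of the 6 motifs in this window. Their GC content was 63.6% for Mertk and 57.2% for Stab1, set against 60.0% for Axl, 50.0% for Timd4 and a median of 52.4% over all promoters. A match describes the letters and does not show a bound factor.

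In macrophages, 9 of the 10 genes had enough counts to be tested, and none passed an adjusted p of 0.05 in edgeR's quasi-likelihood test, against 0.944% of the 14087 genes tested (0.731% higher and 0.213% lower in cre). At an unadjusted p under 0.05 there were 5 of the 9 (Mertk, Axl, Gas6, Timd4 and Stab1), against 12.8% of all genes. DESeq2 on the same counts called 3 of them, Mertk and Stab1 higher and Timd4 lower in cre. It also called more genes in all than edgeR did, and both totals are given in the last section. The CPM of cre and wt libraries did not overlap for 5 of the 9 (3 with cre above wt and 2 with cre below wt). Among all genes tested the share was 19.9% (10.3% above and 9.6% below). The median log2 change of the 9 genes was 0.42, against 0.0038 for all genes, with 5 positive and 4 negative. In bulk libraries fewer cells of a type and less RNA per cell cannot be told apart.

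**Figure D1:**
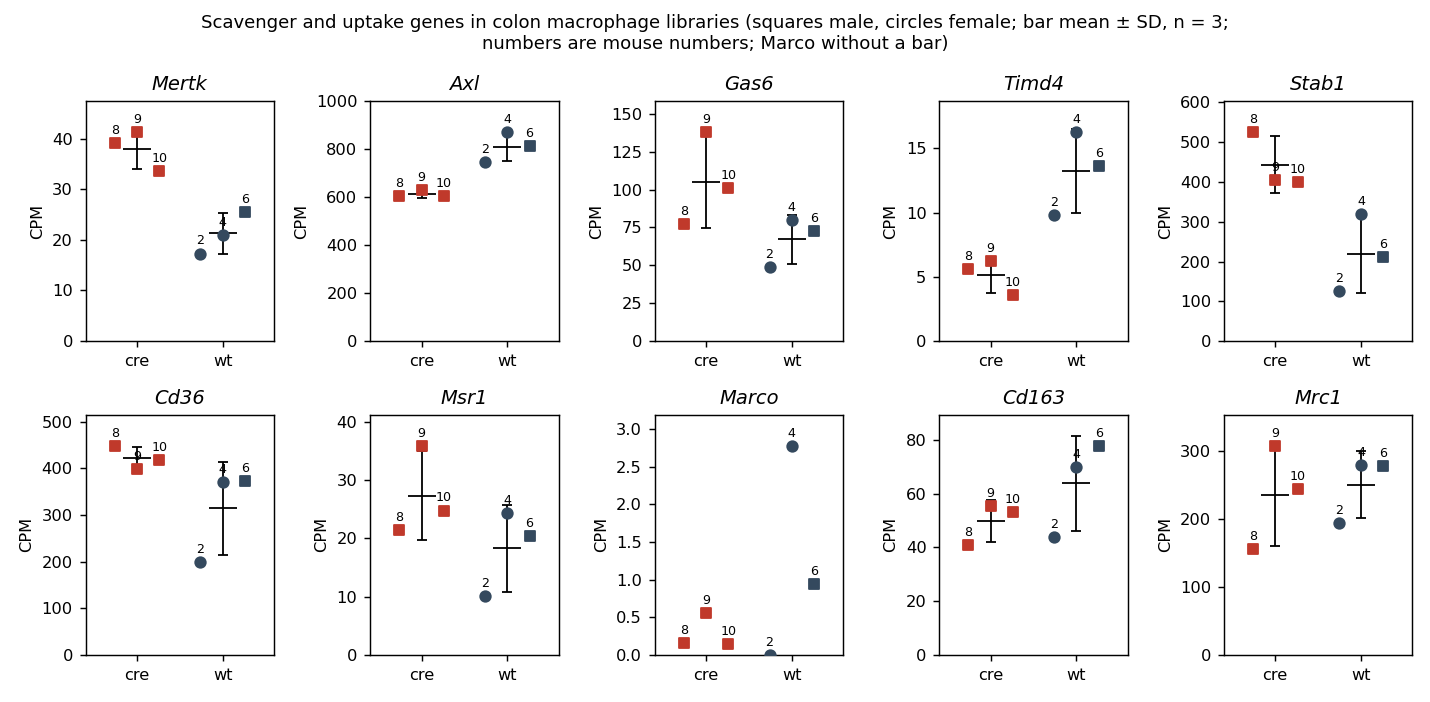
CPM of the 10 genes in each macrophage library, with cre left of wt in every panel, mouse numbers beside the points and bars for the mean ± SD (n = 3 each; no bar for Marco, which has few counts). Mertk, Stab1 and Cd36 lie higher in all cre libraries and Axl and Timd4 lower, and wt macrophage 2 is the lowest wt library in all 10 panels.

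Among the TAM genes, the 2 receptors stood on opposite sides. Mertk, which lies at chr2:128698956-128802894 on the plus strand of GRCm38, stood at 39.1, 41.3 and 33.6 CPM in cre macrophages 8, 9 and 10, against 17.3, 21.0 and 25.5 CPM in wt macrophages 2, 4 and 6. The lowest cre library lay above the highest wt library. The mean was 38.0 ± 3.97 CPM in cre and 21.3 ± 4.09 CPM in wt (SD, n = 3 each), a log2 change of 0.84 ± 0.21 (SE; 95% interval 0.37 to 1.30; adjusted p = 0.119, edgeR). DESeq2 gave Mertk a log2 change of 0.83 with an adjusted p of 0.0259, and the adjusted p lay between 0.0259 and 0.660 over 16 alternatives. All cre libraries were male, and the male wt library had the highest wt value. Among males only, the log2 change of Mertk was 0.58.

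Axl, at chr7:25757273-25788705 on the minus strand, had the highest level of the 10 genes. It stood at 605, 632 and 606 CPM in cre macrophages 8, 9 and 10, against 749, 872 and 813 CPM in wt macrophages 2, 4 and 6. The cre libraries lay within a narrow band, and all were below the lowest wt library. The mean was 614 ± 15.3 CPM in cre and 811 ± 61.6 CPM in wt (SD, n = 3 each), a log2 change of -0.40 ± 0.14 (SE; adjusted p = 0.252, edgeR). Its log2 change ranged only between -0.45 and -0.35 over the 16 alternatives, none of which passed the threshold.

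Gas6, the secreted bridge to both receptors, stood at 77.1, 137.9 and 100.8 CPM in cre macrophages 8, 9 and 10, against 48.7, 79.6 and 72.9 CPM in wt macrophages 2, 4 and 6. The groups overlapped, since cre macrophage 8 lay below wt macrophage 4. The log2 change was 0.65 ± 0.25 (SE; adjusted p = 0.319, edgeR), and it was 0.41 without cre macrophage 9 and 0.47 without wt macrophage 2. Gas6 overlaps Tmem255b on the opposite strand, and Stab1 overlaps Nt5dc2. The protocol keeps no strand, and these partners reached at most 94 and 128 counts in any library.

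Ratios of FPKM, which take length into account, were computed within each library for pairs chosen after their values were seen, and are given as a description. The ratio of Axl to Mertk was 15.5, 15.4 and 18.1 in cre macrophages 8, 9 and 10, against 43.5, 41.6 and 32.0 in wt macrophages 2, 4 and 6. The ratio of Gas6 to Axl was 0.214, 0.367 and 0.279 in the cre libraries, against 0.109, 0.154 and 0.151 in the wt libraries. Neither of these ratios overlapped between the groups. For Axl over Mertk this was fixed in advance, since every cre library had lower Axl and higher Mertk than every wt library. The ratio therefore adds no result beyond the single genes. The ratio of Gas6 to Mertk did overlap, at 3.32, 5.64 and 5.07 in cre macrophages 8, 9 and 10, against 4.76, 6.39 and 4.83 in wt macrophages 2, 4 and 6. Within each library Axl exceeded Mertk in both genotypes.

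**Figure D2:**
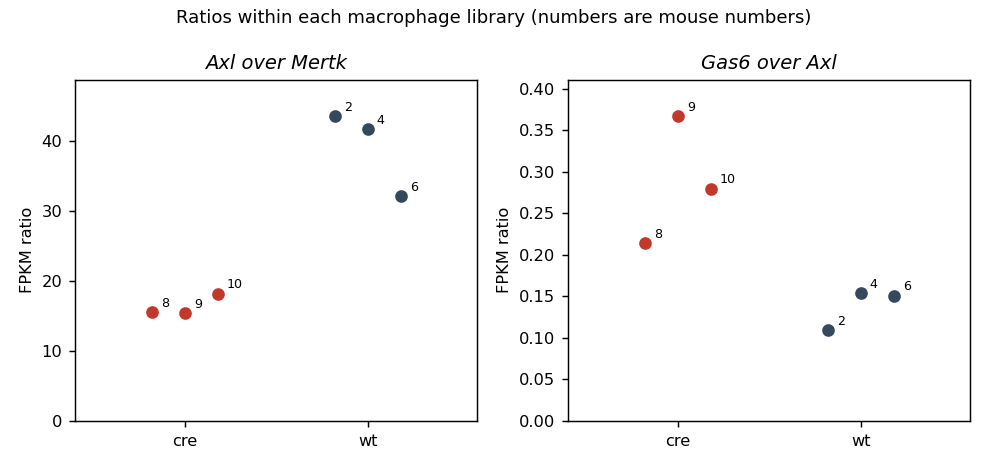
Ratio of the FPKM of Axl to Mertk (left) and of Gas6 to Axl (right) within each macrophage library, with cre left of wt and mouse numbers beside the points. The ratio of Axl to Mertk lies between 15.4 and 18.1 in cre and between 32.0 and 43.5 in wt libraries.

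The other genes of the TAM system were read from a list of 16 ligands, partners, shedding proteases and signalling genes, of which 13 were tested in macrophages. Of these, 1 rose and none fell. Lgals3, a galectin known as a ligand of Mertk, averaged 2145 ± 521 CPM in cre and 827 ± 158 CPM in wt (SD, n = 3 each), a log2 change of 1.38 ± 0.22 (SE; adjusted p = 0.0285, edgeR). Pros1, which encodes protein S and is named here after its values were seen, averaged 10.1 ± 6.15 CPM in cre and 21.2 ± 2.32 CPM in wt, with a log2 change of -1.06 ± 0.40 (SE; adjusted p = 0.311, edgeR). All cre macrophage libraries were male, and with sex as a covariate none of the 11 genes of the lists and marker lists called in macrophages was called, though all 11 kept their sign. Lgals3 then had a log2 change of 1.35 (adjusted p = 0.420, edgeR). Among males only, where wt is 1 library, Fabp5 alone of the 11 was called. Of these 11 genes 1 was called without cre macrophage 10, 3 without cre macrophage 8, 8 without cre macrophage 9, 2 without wt macrophage 2, 1 without wt macrophage 4 and 6 without wt macrophage 6. Fabp5 was called in each of these fits. The third receptor, Tyro3, was not among the genes tested in macrophages. The median log2 change of the list was 0.09.

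The receptors that bind phosphatidylserine themselves also differed in direction. Timd4, at chr11:46810800-46844332 on the plus strand, is known as a marker of long-lived gut macrophages. It stood at 5.61, 6.23 and 3.56 CPM in cre macrophages 8, 9 and 10, against 9.83, 16.3 and 13.6 CPM in wt macrophages 2, 4 and 6. These values rest on 25 to 56 counts per cre library and 96 to 123 counts per wt library. The groups did not overlap. The mean was 5.13 ± 1.40 CPM in cre and 13.2 ± 3.24 CPM in wt (SD, n = 3 each), a log2 change of -1.36 ± 0.33 (SE; 95% interval -2.09 to -0.62; adjusted p = 0.110, edgeR). DESeq2 gave -1.37 with an adjusted p of 0.0168, within 0.0168 to 0.4995 over 16 alternatives. Among males only the log2 change was -1.39.

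Stab1, at chr14:31139013-31168641 on the minus strand, stood at 525, 405 and 399 CPM in cre macrophages 8, 9 and 10, against 126, 320.3 and 211 CPM in wt macrophages 2, 4 and 6. All cre libraries lay above the highest wt library, and the wt libraries were spread widely. The mean was 443 ± 71.3 CPM in cre and 219 ± 97.5 CPM in wt (SD, n = 3 each), a log2 change of 1.02 ± 0.30 (SE; adjusted p = 0.196, edgeR). DESeq2 gave 1.01 with an adjusted p of 0.00940, within 0.00940 to 0.647 over 16 alternatives. The log2 change was 0.74 without wt macrophage 2 and 1.40 without wt macrophage 4.

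A list of 24 other receptors, bridging molecules and decoys for dying cells had 18 tested genes in macrophages, of which 1 rose and none fell. Trem2, a lipid-sensing receptor of macrophages, averaged 295 ± 78.0 CPM in cre and 82.0 ± 12.97 CPM in wt (SD, n = 3 each), a log2 change of 1.85 ± 0.22 (SE; adjusted p = 0.00822, edgeR, and 0.236 with sex as a covariate). Its log2 change was larger than that of any of the 9 tested members. The median over the 18 genes was 0.22.

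The lipid and bacterial scavenger receptors followed. Cd36, a fatty acid and oxidised lipoprotein receptor, stood at 448, 398 and 418 CPM in cre macrophages 8, 9 and 10, against 199, 370.4 and 373 CPM in wt macrophages 2, 4 and 6. The groups did not overlap, but wt macrophages 4 and 6 lay near the lowest cre library. The log2 change was 0.42 ± 0.23 (SE; adjusted p = 0.501, edgeR) and 0.18 without wt macrophage 2.

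Msr1, a class A scavenger receptor for modified lipoproteins, stood at 21.4, 35.8 and 24.8 CPM in cre macrophages 8, 9 and 10, against 10.04, 24.3 and 20.4 CPM in wt macrophages 2, 4 and 6. The groups overlapped. The log2 change was 0.59 ± 0.34 (SE; adjusted p = 0.525, edgeR), and 0.29 without wt macrophage 2. Marco, another class A receptor, had 1, 5 and 1 counts in cre macrophages 8, 9 and 10 and 0, 21 and 8 counts in wt macrophages 2, 4 and 6. It did not pass the filter on low counts and was not tested. Of its 29 counts in wt libraries, 21 came from wt macrophage 4.

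The receptors for haemoglobin and glycoproteins stood slightly lower in cre on average, with overlapping groups. Cd163 stood at 40.8, 55.3 and 53.2 CPM in cre macrophages 8, 9 and 10, against 44.0, 70.0 and 77.7 CPM in wt macrophages 2, 4 and 6. Its log2 change was -0.36 ± 0.23 (SE; adjusted p = 0.588, edgeR), with -0.57 without wt macrophage 2, -0.19 without wt macrophage 6, -0.23 without cre macrophage 8 and -0.63 among males only. Mrc1 stood at 156, 308 and 244 CPM in cre macrophages 8, 9 and 10, against 194, 280 and 278 CPM in wt macrophages 2, 4 and 6. Its log2 change was -0.09 ± 0.25 (SE; 95% interval -0.66 to 0.48; adjusted p = 0.934, edgeR), and it turned to 0.14 without cre macrophage 8.

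Single libraries moved many of the genes at once. In wt macrophage 2 the level of 10 of 10 genes was the lowest of the wt libraries, and the summed level of 16 macrophage markers was also lowest there, at 17764 CPM. That sum was 23014 to 27163 CPM in cre libraries and 22452 and 22598 CPM in the other wt libraries. In cre macrophage 9 the level of 8 of 10 genes was the highest of the cre libraries, and the summed level of 16 endothelial markers was 1142 CPM there, against 127 and 501 CPM in the other cre libraries and 271 to 518 CPM in wt libraries. Stab1 and Cd36 were the members not highest in cre macrophage 9, and both were highest in cre macrophage 8, which had the lowest endothelial sum. The macrophages were sorted for CD45, CD11b and CD64, and all their libraries held counts of endothelial markers. The part of either sum in the results was not tested. Without wt macrophage 2 the log2 change was 0.71 for Mertk, -0.45 for Axl, -1.53 for Timd4, -0.57 for Cd163 and -0.24 for Mrc1. Without cre macrophage 9 it was 0.78 for Mertk, -0.42 for Axl, -1.52 for Timd4, 1.08 for Stab1, 0.47 for Cd36, 0.35 for Msr1, -0.44 for Cd163 and -0.32 for Mrc1. None of these values changed sign, and none passed the threshold. The values of the remaining members without these libraries stand with each gene above.

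**Figure D3:**
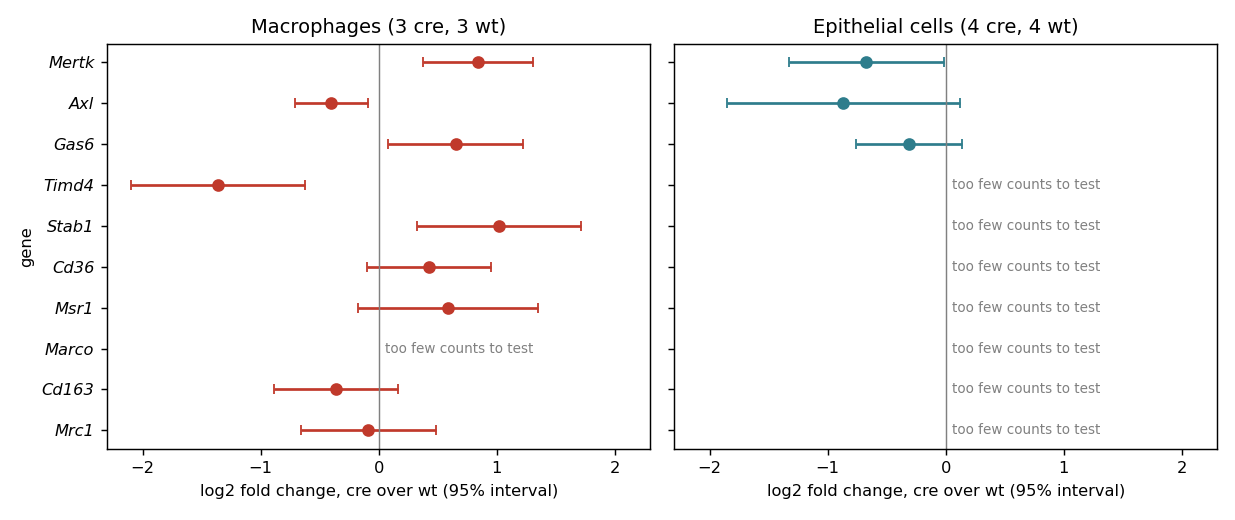
Log2 change of cre against wt for each gene tested, in macrophages and in epithelial cells, with 95% intervals from edgeR. In macrophages the intervals of Mertk, Axl, Gas6, Timd4 and Stab1 do not include 0, although none of the 9 genes passed the adjusted threshold.

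The marker lists describe what else the sorted macrophages held. Macrophages were sorted as CD45+, CD11b+, CD64+ and MHC class II+ cells without Ly6G, SiglecF, CD24, CD103 and Ly6C. All 16 macrophage markers were tested, and 1, Cd68, rose in cre. Lyz2 and C1qb were the most abundant of them. Of 16 fibroblast and smooth muscle markers, led by Col3a1 and Fbln1, 15 were tested and 2 fell. Mfap4 averaged 68.3 ± 11.5 CPM in cre and 294 ± 115 CPM in wt (SD, n = 3 each), a log2 change of -2.10 (adjusted p = 0.0227, edgeR), which was -1.29 with sex as a covariate (adjusted p = 0.224). Fbln1 averaged 259 ± 46.3 CPM in cre and 972 ± 413 CPM in wt, a log2 change of -1.91 (adjusted p = 0.0383, edgeR), which was -0.94 with sex as a covariate (adjusted p = 0.400). The summed level of the fibroblast markers was 1398 to 3406 CPM in cre and 4068 to 7396 CPM in wt libraries, without overlap. Fibroblasts are known to express Axl and Gas6, and Axl was lower and Gas6 higher on average in cre. The part of fibroblast RNA in the values of Axl and Gas6 was not tested.

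Of 15 dendritic cell markers, led by Ccr7 and Cd209a, 1 fell (Itgae, log2 change -2.09, adjusted p = 0.0165, edgeR, and 0.236 with sex as a covariate), and their sum was 2222 to 2393 CPM in cre and 2787 to 3767 CPM in wt libraries. Of 12 monocyte markers, led by Ccr2 and F13a1, 10 were tested and 1 fell (Plac8, log2 change -1.17, adjusted p = 0.0301, edgeR, and 0.429 with sex as a covariate), with sums of 539 to 786 CPM in cre and 939 to 1122 CPM in wt libraries. None of the tested markers passed the threshold in edgeR in the other lists. Negative log2 changes were held by 14 of 15 dendritic, 8 of 10 monocyte and 12 of 15 fibroblast markers. They were also held by 9 of 11 B and plasma cell, 13 of 16 epithelial, 7 of 8 T and innate lymphoid and 5 of 5 eosinophil and mast cell markers. Positive ones were held by 14 of 16 macrophage and 12 of 14 endothelial markers, against 50.5% of all genes tested. The sums of 12 B and plasma cell markers, led by Igkc and Jchain, were 4010 to 6746 CPM in cre and 2262 to 8342 CPM in wt libraries. Epithelial markers, led by Krt8 and Agr2, summed to 127 to 282 CPM in cre and 70.1 to 388 CPM in wt libraries. T and innate lymphoid markers, led by Il7r and Lck, summed to 75.9 to 131 CPM in cre and 93.6 to 113 CPM in wt libraries. Eosinophil and mast cell markers, led by Ear2 and Alox15, summed to 42.7 to 75.01 CPM in cre and 102 to 123 CPM in wt libraries. The endothelial list was led by Plvap and Esam.

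Levels were compared between genes on the FPKM scale. In cre macrophages Axl was highest (132 ± 5.03 FPKM, SD, n = 3), then Cd36 (110.0 ± 4.74), Stab1 (51.1 ± 7.32), Mrc1 (40.7 ± 13.7), Gas6 (38.3 ± 11.7), Cd163 (10.3 ± 1.77), Mertk (8.16 ± 0.86), Msr1 (6.32 ± 1.83), Timd4 (2.18 ± 0.60) and Marco (0.137 ± 0.116). In wt macrophages the order was Axl (176 ± 13.2), Cd36 (82.3 ± 26.03), Mrc1 (43.2 ± 8.46), Stab1 (25.4 ± 11.3), Gas6 (24.4 ± 5.89), Cd163 (13.2 ± 3.62), Timd4 (5.65 ± 1.38), Mertk (4.58 ± 0.87), Msr1 (4.22 ± 1.71) and Marco (0.598 ± 0.680). Among neighbours in the cre order, the libraries of Stab1, Mrc1 and Gas6 overlapped, as did those of Cd163, Mertk and Msr1. In the wt order the libraries of Mrc1, Stab1 and Gas6 overlapped between neighbours, as did those of Timd4, Mertk and Msr1.

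**Figure D4:**
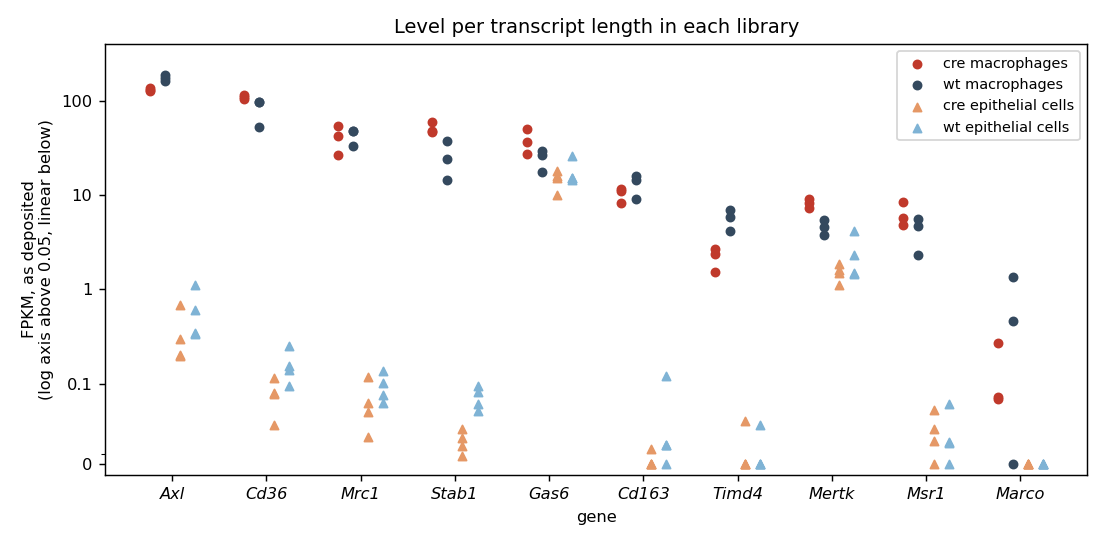
FPKM of the 10 genes in every library (circles macrophages, triangles epithelial cells, cre left of wt in each cell type) on an axis that is logarithmic above 0.05 FPKM and linear below it. Axl and Cd36 stand highest in macrophages of both genotypes, Marco stands lowest, and the epithelial points come near the macrophage points for Gas6 and Mertk.

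Genes that act after a receptor has bound its cargo were described by lists of their own. Of 25 genes of the engulfment machinery, 24 were tested and 1 rose. Lamp1, a membrane protein of the lysosome, averaged 1191 ± 117 CPM in cre and 618 ± 32.0 CPM in wt (SD, n = 3 each), a log2 change of 0.95 ± 0.14 (SE; adjusted p = 0.0242, edgeR, and 0.400 with sex as a covariate). The median log2 change of these 24 genes was 0.15. Of 21 genes of lipid and sterol handling, all were tested and 1 rose. Fabp5, a fatty acid binding protein, averaged 175 ± 57.6 CPM in cre and 9.47 ± 1.33 CPM in wt (SD, n = 3 each), a log2 change of 4.198 ± 0.27 (SE; adjusted p = 0.000371, edgeR, and 0.0561 with sex as a covariate). The median of the list was 0.42.

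Haem and iron genes, which handle what Cd163 brings in, had 14 tested genes, of which 2 rose, with 13 positive log2 changes and a median of 0.64. Ftl1, the ferritin light chain, averaged 2070 ± 396 CPM in cre and 1004 ± 49.0 CPM in wt (SD, n = 3 each), a log2 change of 1.04 ± 0.17 (SE; adjusted p = 0.0303, edgeR, and 0.400 with sex as a covariate). Hmox1, the inducible haem oxygenase, averaged 84.5 ± 22.3 CPM in cre and 34.7 ± 3.65 CPM in wt (SD, n = 3 each), a log2 change of 1.28 ± 0.21 (SE; adjusted p = 0.0303, edgeR, and 0.430 with sex as a covariate). Cd163 itself had a negative log2 change, given above.

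A list of 30 further scavenger and uptake lectin receptors had 28 tested genes. Only Cd68 rose, and none fell. Cd68, a lysosomal glycoprotein of the scavenger receptor class D, averaged 872 ± 211 CPM in cre and 353 ± 19.4 CPM in wt (SD, n = 3 each), a log2 change of 1.31 ± 0.19 (SE; adjusted p = 0.0220, edgeR, and 0.378 with sex as a covariate). The median of the 28 genes was -0.70, with 17 negative log2 changes, none of which passed the threshold. Receptors for soluble signals and for signals that restrain uptake had 14 tested genes, and none passed the threshold. Siglecg, an inhibitory lectin, had a log2 change of -0.90 (adjusted p = 0.182, edgeR), and Sirpa, the receptor for CD47, one of 0.48 (adjusted p = 0.194, edgeR).

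Transcription factors known for macrophage scavenger programmes had 17 tested genes, and none passed the threshold. The smallest p-values belonged to Irf4 (23.4 ± 3.89 CPM in cre and 38.1 ± 7.27 CPM in wt; log2 change -0.70, adjusted p = 0.204, edgeR) and Tfec (5.397 ± 2.39 CPM in cre and 2.59 ± 0.153 CPM in wt; log2 change 1.06, adjusted p = 0.323, edgeR).

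The genes were then compared between macrophages and epithelial cells. Of 9 tested, 8 were called higher in macrophages at an adjusted p under 0.05 and at least 2-fold, against 29.7% of 16375 genes. The members were chosen as genes of macrophage uptake. All tested ones but Mertk, Axl and Gas6 passed the filter through their macrophage counts. The count of calls was thus largely fixed in advance and is given as a description. The log2 difference was 9.71 for Stab1, 9.58 for Cd36, 9.43 for Cd163, 8.96 for Mrc1, 8.31 for Axl, 7.83 for Timd4, 7.31 for Msr1 and 1.59 for Mertk. Gas6, at 0.80 ± 0.18 (SE; adjusted p = 0.000633, edgeR), passed the p threshold but not the 2-fold one. For the percents that follow, CPM were scaled over all 14 libraries together. Relative to their macrophage level, Gas6 stood at 56.4% and Mertk at 32.9% in epithelial libraries, whereas 7 others lay between 0.133% and 0.542% and Marco had no count. The 16 macrophage markers stood at 0.172% to 2.77% there, with a median of 0.441%. For Marco a count of 0 in each epithelial library allows up to 3 counts, between 0.282 and 0.478 CPM.

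**Figure D5:**
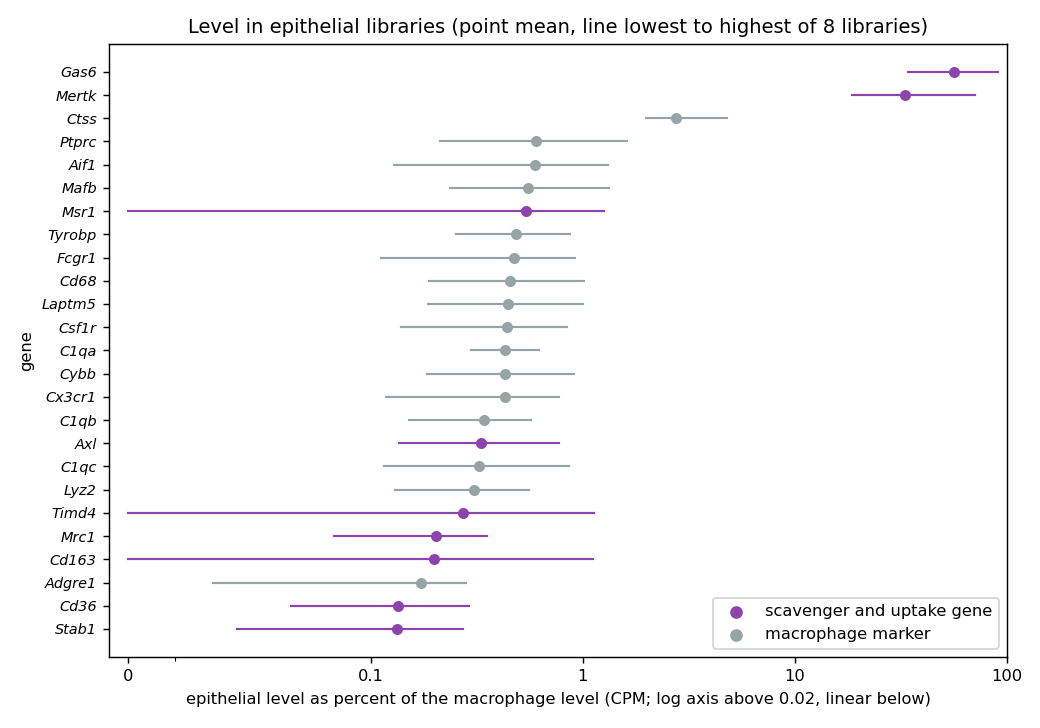
Level of each gene in epithelial libraries as a percent of its mean CPM in macrophage libraries, for the 9 genes with a count there and 16 macrophage markers, with points for the mean and lines from the lowest to the highest of 8 libraries, on an axis that is logarithmic above 0.02%. CPM here were scaled over all 14 libraries together. Gas6 at 56.4% and Mertk at 32.9% lie above all markers, whose means range from 0.172% to 2.77%.

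In epithelial cells, 3 of the 10 genes were tested and none passed in edgeR, against 9.17% of 13553 genes. In that test 1, Mertk, had an unadjusted p under 0.05, against 27.3% of all genes. DESeq2 also called none of the members, against 1957 of 27638 genes. Mertk stood at 11.1, 6.82, 9.20 and 9.79 CPM in cre epithelial libraries 8, 9, 10 and 5, and at 14.8, 9.10, 26.3 and 9.31 CPM in wt epithelial libraries 2, 4, 6 and 7. The groups overlapped, and wt epithelial 6 lay far above the others. The log2 change was -0.67 ± 0.31 (SE; adjusted p = 0.172, edgeR) and -0.26 without that library. Axl had a log2 change of -0.87 ± 0.46 (SE; adjusted p = 0.239, edgeR) with -0.38 without wt epithelial 7 and -1.39 without cre epithelial 8.

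Gas6 stood at 64.3, 55.4, 58.4 and 35.8 CPM in cre epithelial libraries 8, 9, 10 and 5, and at 54.5, 56.7, 56.9 and 96.8 CPM in wt epithelial libraries 2, 4, 6 and 7. The groups overlapped, and the log2 change was -0.31 ± 0.21 (SE; adjusted p = 0.357, edgeR) and -0.07 without wt epithelial 7. The other 7 genes had between 0 and 11 counts in any epithelial library. Among them Stab1 had 3, 3, 2 and 1 counts in cre epithelial libraries 8, 9, 10 and 5 and 9, 5, 6 and 6 counts in wt epithelial libraries 2, 4, 6 and 7, without overlap. It was too low to be tested there. Of the genes that were tested, 6.68% had all cre libraries below all wt libraries, a share that does not cover genes as low as Stab1. Macrophage markers in the epithelial libraries moved the same way. Of 15 tested, 5 fell (Lyz2, Laptm5, Cybb, Ptprc and C1qa), and all 15 had negative log2 changes, with a summed level of 82.9 to 142 CPM in cre and 128 to 266 CPM in wt libraries. With 1 library left out, 1 to 5 of these 5 markers were called, and Lyz2 was called each time; among males only Lyz2 alone was called. The part of macrophage RNA in the epithelial values was not tested.

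The genotype effects in the 2 cell types were set against each other in a fit of all 14 libraries. None of 9 genes tested passed in edgeR, against 0.702% of 16375 genes, and 4 had an unadjusted p under 0.05, against 15.3% of all genes. Of the 9, all but Mertk, Axl and Gas6 had too few epithelial counts to be tested there. These passed the filter through their macrophage counts. DESeq2 called 2 of the members, Stab1 and Mertk, against 509 of 31256 genes. The macrophage effect minus the epithelial effect was 2.78 ± 0.63 on the log2 scale for Stab1 (SE; adjusted p = 0.0556, edgeR), which rests on 1 to 9 counts in each epithelial library. It was 1.49 ± 0.43 for Mertk (adjusted p = 0.121, edgeR), 1.48 ± 0.50 for Cd36 (adjusted p = 0.186) and 0.94 ± 0.36 for Gas6 (adjusted p = 0.227). The Cd36 value rests on 2 to 11 counts in each epithelial library. The Mertk value also includes wt epithelial 6.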

How the data were processed

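The labels describe colon cells sorted by flow cytometry, cDNA made with Smart-seq2, which keeps no strand, and Nextera XT libraries read as 50 bp single reads. Per the submitters' processing notes, STAR 2.5.2b, Picard 2.19.2, DESeq2 1.24.0 and GRCm38 were used; which program counted reads, the annotation release and any strand setting: not given in the sources used here. The authors deposited raw counts per gene and library, and FPKM per gene and library. Gene positions are those of the deposited tables.

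The test on counts was that of edgeR 4.0.16 (R 4.3.3; TMM scaling, filterByExpr with a minimum count of 10, robust quasi-likelihood F test, Benjamini-Hochberg adjusted p under 0.05 over all genes tested). Each cell type was fitted alone; the difference of effects and the cell types were fitted on 14 libraries. CPM are counts scaled by the TMM library sizes within 1 cell type, except for the percents of the macrophage level, which use the fit of 14 libraries. SE was taken as the size of the log2 change over the root of F. Alternatives used DESeq2 1.42.0 and limma 3.58.1 on log2(FPKM + 1), a scale that understates changes of low genes. Models were also run on counts simulated from the mean and spread of each gene. These held no effect of sex, no other cells and no aberrant library, so the run does not bear on those limits. The 95% intervals of log2 changes include the spread between libraries, whereas limits for 0 counts cover counting error only. The members and lists were chosen with earlier results of these data known. All members are named, with those of each list past the threshold in macrophages (at most 4), or the 2 with the smallest p where none passed; for marker lists, the 2 most abundant. The labels do not say that libraries of a group came from separate animals beyond their mouse numbers, and the series text states 3 control mice where titles carry 4 numbers, so 2 wt epithelial libraries could share an animal. Over 6 pairs of libraries with the same mouse number, correlations of deviations were -0.06 to -0.006 in cre and 0.03 to 0.09 in wt. Numbers were not used as pairs in the main fits, and a block on mouse number was an alternative. Such small correlations do not show that libraries of the same number are independent. With 3 libraries against 3, the smallest two-sided p of an exact permutation test is 0.1.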

Additional observations from a re-analysis of the deposited data

Results flagged for a closer look

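In groups of 4 epithelial libraries, 5 of 18 sets of values held a library far from the other three. Chance gives about 1 in 20 for continuous values, a rate that does not apply to the 3 sets made of a single count beside 0 counts. Gas6 stood at 96.8 CPM in wt epithelial 7, above the other wt libraries at 54.5 to 56.9 CPM. Timd4 stood at 0.128 CPM in cre epithelial 8 and at 0.118 CPM in wt epithelial 7, each resting on 1 count where the other libraries of the group had 0. Cd163 stood at 0.0961 CPM in cre epithelial 9, on 1 count, and at 0.796 CPM in wt epithelial 6, on 5 counts.

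For Stab1 every cre library lay above every wt library in macrophages and below every wt library in epithelial cells. The epithelial side rests on 1 to 3 counts per cre library and 5 to 9 per wt library, too few to be tested. All 15 macrophage markers tested in epithelial cells also had negative log2 changes. The difference of the genotype effects was 2.78 on the log2 scale (adjusted p = 0.0556, edgeR; 0.00431 to 0.211 over 24 alternatives).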

How the results depend on the processing

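In macrophages edgeR called 133 genes, and the count was 497 with DESeq2, 299 without the filter, 47 with limma on log2(FPKM + 1) without a filter, 2 with sex as a covariate, 32 in males only (where wt is 1 library, assumed to vary like the others), 374 with all libraries in one fit, and 29 to 87 when 1 library was left out. Of the members, 3 were called by DESeq2, 1 without the filter (Timd4) and 1 in the fit of all libraries (Stab1), and 0 with any library left out. In epithelial cells 1243 genes were called, with 1957 by DESeq2, 0 by limma on log2(FPKM + 1) without a filter, 5 in males only, 19 in the fit of all libraries and 178 to 1947 with 1 library left out; 1 member, Mertk, was called without the filter. For the difference of effects 115 genes were called, with 509 by DESeq2, 195 without the filter, 297 by limma on log2(FPKM + 1), 183 by limma without a filter, 18 in males only and 54 to 229 with 1 library left out. There, 2 members were called by DESeq2, 1 without the filter (Stab1), 1 by limma on log2(FPKM + 1) (Timd4), and 0 to 1 with 1 library left out (Stab1 without wt macrophage 2 or wt macrophage 4). Between cell types 8543 genes were called, with 4994 by limma on log2(FPKM + 1) and 5536 without its filter. There, 8 members were called, with 9 by DESeq2, 9 by edgeR without the filter and 8 with any library left out. The split of calls in epithelial cells was 765 higher and 478 lower in cre, and 1142 and 246 by limma on log2(FPKM + 1); for the difference of effects it was 77 positive and 38 negative, and 70 and 53 with RLE size factors. With a replicate block on mouse number the difference of effects had 8 calls, and no member was called. The sign turned for Tsc2 in macrophages with sex as a covariate (0.31) and among males only (0.32), and for Mrc1 without cre macrophage 8 (0.14; -0.32 to 0.14 over the libraries left out). For the difference of effects it turned under limma on log2(FPKM + 1), with or without a filter, for Axl (-0.16), Cd163 (-0.26) and Mrc1 (-0.083), with the block for Axl (-0.18) and Msr1 (-0.53), without cre epithelial 8 for Timd4 (0.21; -2.75 to 0.21 over the libraries left out), and without wt epithelial 7 for Axl (-0.034; -0.034 to 0.96 over the libraries left out) and Msr1 (-0.14; -0.14 to 1.07). The causes were not tested. Groups of 3 libraries, unequal sexes between the genotypes and epithelial values of at most 11 counts for 7 members limit these results.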
